A study of Mus musculus with 10 samples.

Results

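The NK cell receptors described here are 10 genes taken by symbol, Ncr1, Klrb1c, Klra1, Klra3, Klra7, Klra8, Klre1, Klrk1, Klrd1 and Klrc1, out of 24202 gene symbols measured. All 10 were found, and all 10 had a mean of at least 10 normalized counts, as 16767 genes did. The measurements were bulk RNA sequencing of 10 tumors of MB-49, a mouse bladder cancer cell line, grown from 100000 cells injected under the skin of the right flank. Every mouse, in both groups, was an hLrrc32 knock-in, which carries the human LRRC32 gene for GARP, the surface protein that holds latent TGF-beta. Mice of the PIIO-1 group (n = 5) were given this GARP antibody intraperitoneally, 200 ug each time, on day 6 and again on day 9, mice of the PBS group (n = 5) were given PBS, and tumors of both groups were taken on day 10 and made into cell suspensions. The libraries held between 18843192 and 37581521 reads in genes. The labels give neither the strain nor the age of the mice, and they do not say that each tumor came from a separate animal, so p-values measure only the spread between these samples.

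Natural killer (NK) cells are lymphocytes that kill infected or transformed cells without a rearranged antigen receptor. Whether they do so is set by the balance of activating receptors, which signal through small adaptor proteins, and inhibitory receptors, many of which recognize MHC class I molecules. Most of these receptors in mice are C-type lectin-like proteins encoded side by side in the NK gene complex, and TGF-beta is a known restraint on NK cell activity. In a whole tumor, fewer NK cells and less receptor RNA per cell cannot be told apart.

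The members were detected in every tumor, and none differed between the treatment groups beyond the spread of the tumors. Their levels moved together from tumor to tumor instead: summed over the 10 genes they ran from 3057 to 6913 normalized counts (reads scaled by a size factor per tumor), and the same tumors were low or high for nearly every member. With limma on log2(normalized count + 1), adjusted over all 16767 genes, 0 of the 10 members passed 0.05, where 0% of all genes did. At an unadjusted p under 0.05 the count was also 0 of 10 by limma, by edgeR and by DESeq2, where limma gave 5.63% of all genes. The PBS and PIIO-1 values overlapped for all 10 members, while the groups did not overlap for 0.853% of all genes. DESeq2 on whole reads called 0.0179% of all genes and edgeR 0%, none of them a member. All 10 differences (PIIO-1 minus PBS) were below 0, with a median of -0.12 against 0.0027 over all genes tested, but they are not 10 independent results, and single tumors moved the median. It was 0.060 once PIIO-1 tumor 1 was dropped, 0.0038 once PIIO-1 tumor 3 was and -0.0061 once PBS tumor 1 was. It was -0.24 when PBS tumor 2 was dropped, and dropping PIIO-1 tumors 2, 4 and 5 in turn gave -0.22, -0.23 and -0.20.

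**Figure D1:**
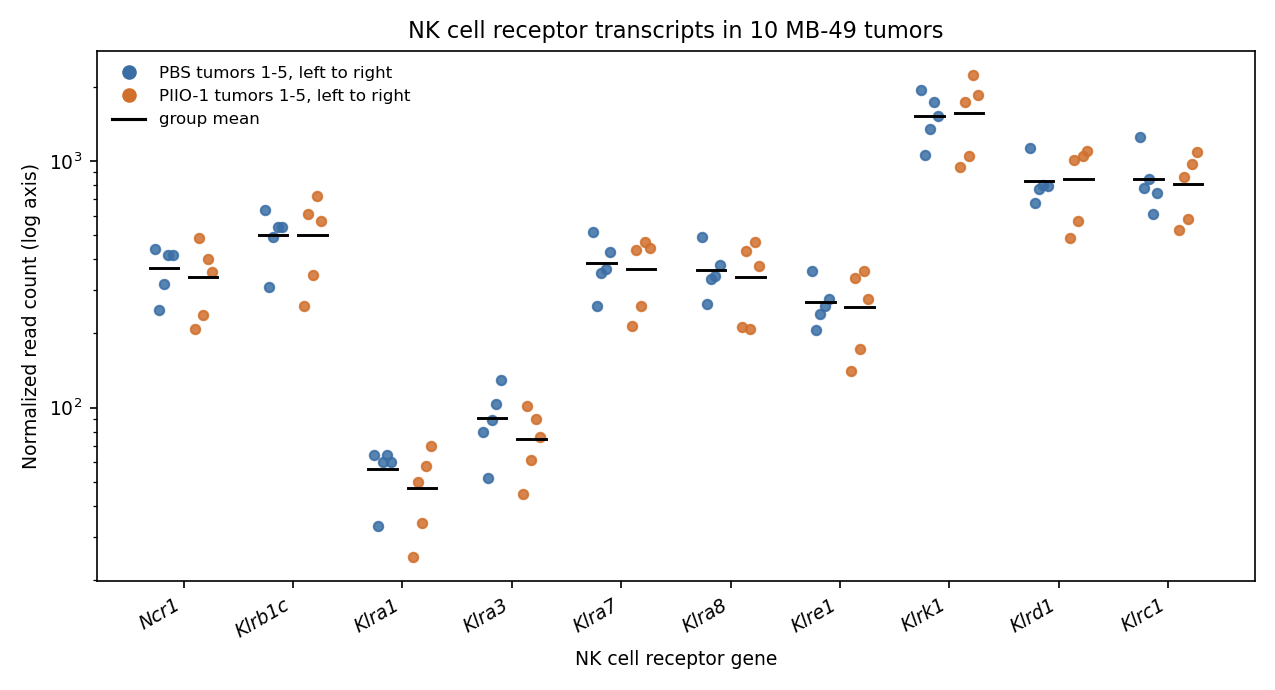
Normalized read counts (log axis) of the 10 NK cell receptor genes, 1 point per tumor, with PBS tumors 1 to 5 in blue and PIIO-1 tumors 1 to 5 in orange, and a bar at each group mean. The groups overlap for every gene, and PIIO-1 tumors 1 and 3 and PBS tumor 2 lie low for most genes.

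The activating receptor NKp46, encoded by Ncr1, is among the most NK-restricted receptors. The gene lies on chromosome 7 (4337724 to 4345164, plus strand, GRCm38), apart from the other members. In PBS tumors 1 to 5 Ncr1 stood at 438, 249.7, 316, 417 and 415 normalized counts, and in PIIO-1 tumors 1 to 5 at 208, 487, 238, 401 and 355. PIIO-1 tumor 2 was thus the highest of the 10 and PIIO-1 tumors 1 and 3 the lowest, on either side of all PBS values. The PBS mean was 367 ± 81.0 and the PIIO-1 mean 338 ± 116 (SD, n = 5 each), a difference of -0.16 on the log2 scale (SE 0.24, 95% interval -0.68 to 0.36, limma adjusted p = 0.926). It was -0.0027 without PIIO-1 tumor 1.

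Klrb1c encodes NK1.1, an activating receptor that serves as an NK cell marker in several mouse strains. It lies on chromosome 6 (128778485 to 128789215, minus strand) at 1 end of the NK gene complex as covered by the members. Klrb1c stood at 635, 308, 493, 538 and 541 in PBS tumors 1 to 5 and at 258, 609, 345, 724 and 572 in PIIO-1 tumors 1 to 5. Both the lowest value (PIIO-1 tumor 1) and the highest (PIIO-1 tumor 4) came from the PIIO-1 group, and the group means were 503 ± 121 and 501 ± 194. The difference was -0.066 (SE 0.28, adjusted p = 0.978, limma), and it was 0.15 without PIIO-1 tumor 1.

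To show what lies in front of these genes, the 250 bases before the most upstream start in RefSeq (build GRCm38.p6) are printed for Ncr1 (chr7:4337465-4337714, plus strand), Klrk1 (chr6:129623865-129624114, minus strand), Klra7 (chr6:130233323-130233572, minus strand) and Klra8 (chr6:130129899-130130148, minus strand), each 5′ to 3′ on the gene's own strand. Ncr1 and Klrk1 are shown because they hold the RUNX motif TGTGGT, and Klra7 and Klra8 because they are the most alike of the windows. Capitals mark TGTGGT on either strand.
Ncr1: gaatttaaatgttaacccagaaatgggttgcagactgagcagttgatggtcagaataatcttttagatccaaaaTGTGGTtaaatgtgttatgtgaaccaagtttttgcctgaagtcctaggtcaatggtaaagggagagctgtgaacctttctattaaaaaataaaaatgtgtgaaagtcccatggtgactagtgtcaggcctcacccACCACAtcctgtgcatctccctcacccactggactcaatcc
Klrk1: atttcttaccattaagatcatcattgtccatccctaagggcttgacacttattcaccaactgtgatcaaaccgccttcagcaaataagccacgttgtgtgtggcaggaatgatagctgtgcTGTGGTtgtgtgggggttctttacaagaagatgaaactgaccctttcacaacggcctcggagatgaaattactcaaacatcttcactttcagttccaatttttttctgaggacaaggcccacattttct
Klra7: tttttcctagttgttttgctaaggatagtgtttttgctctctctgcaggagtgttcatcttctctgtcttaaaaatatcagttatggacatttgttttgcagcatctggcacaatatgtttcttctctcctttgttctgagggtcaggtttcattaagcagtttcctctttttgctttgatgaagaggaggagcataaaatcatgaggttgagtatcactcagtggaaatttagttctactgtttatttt
Klra8: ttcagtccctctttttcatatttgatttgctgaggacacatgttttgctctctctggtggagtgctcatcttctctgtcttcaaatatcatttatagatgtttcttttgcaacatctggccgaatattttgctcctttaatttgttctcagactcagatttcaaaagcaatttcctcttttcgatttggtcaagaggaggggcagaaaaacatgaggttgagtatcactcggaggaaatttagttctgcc

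RUNX factors act in lymphocyte development, including that of NK cells, and TGTGGT occurred in 6 of the 9 members with such a window (Klrd1 has none in the table), with 2 matches for Ncr1 and 0 for Klra3, Klra7 and Klra8. Of 32851 windows of the same length, 14.0% held it. The T-box motif TCACAC was in 1 of 9 members, that of Ncr1, and in 12.3% of all windows. The ETS core GGAA was in 8 of 9 and in 93.4% of all windows, and the AP-1 motif TGANTCA in 0 of 9 and in 6.7%. All motifs were sought on both strands, and a match is a description of the letters only. The Klra7 and Klra8 windows were identical at 75.2% of aligned positions, against 42.2% to 53.7% for the other pairs of members.

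Klra1, Klra3 and Klra7 encode the inhibitory MHC class I receptors Ly49A, Ly49C and Ly49G, while Klra8 encodes Ly49H, an activating receptor that signals through DAP12 and recognizes a protein of mouse cytomegalovirus. Gene content at this locus differs between mouse strains. All 4 lie on the minus strand of chromosome 6 between 130115226 and 130386874. Klra7 stood at 516, 258, 353, 365 and 429.8 in PBS tumors 1 to 5 and at 215, 435, 258, 469.9 and 445 in PIIO-1 tumors 1 to 5. PIIO-1 tumors 1 and 3 and PBS tumor 2 were the low ones, and the other 7 tumors overlapped across groups. Its difference was -0.11 (SE 0.24, 95% interval -0.64 to 0.42), and 0.064 without PIIO-1 tumor 1.

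Klra8 stood at 490.0, 264, 332, 343 and 377 in PBS tumors 1 to 5 and at 212, 433, 208, 469 and 377 in PIIO-1 tumors 1 to 5. It kept close to Klra7: the Klra8 to Klra7 ratio ran only from 0.805 to 1.02 over the 10 tumors, and their log2 levels had a Pearson r of 0.967 (a description over 10 tumors, each a single library for both genes). The Klra8 difference was -0.14 (SE 0.25, 95% interval -0.69 to 0.40), and 0.0037 without PIIO-1 tumor 1.

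Klra1 and Klra3 were the scarcest members. Klra1 stood at 64.0, 33.2, 60.4, 64.0 and 60.3 in PBS tumors 1 to 5 and at 24.9, 49.9, 34.2, 58.2 and 69.9 in PIIO-1 tumors 1 to 5, between 25 and 77 reads per library. PBS tumor 2 lay well below the other PBS tumors, which were between 60.3 and 64.0. The difference of -0.30 (SE 0.29, 95% interval -0.93 to 0.34, limma adjusted p = 0.890) was the most negative of the members, and it was -0.093 once PIIO-1 tumor 1 was dropped, -0.20 once PIIO-1 tumor 3 was and -0.47 once PBS tumor 2 was. Klra3 stood at 79.3, 51.7, 89.0, 103 and 129 in PBS tumors 1 to 5 and at 44.8, 102, 61.3, 90.0 and 76.2 in PIIO-1 tumors 1 to 5. Its highest value was in PBS tumor 5, which was among the 3 highest tumors for no other member. The Klra3 difference was -0.26 (SE 0.27, 95% interval -0.85 to 0.32), and -0.097 without PIIO-1 tumor 1.

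Near-identical family copies limit these single values. Of all 75-base windows in the annotated transcripts (read length is not given in the sources used here), 19.7% of those of Klra8 also occur in another gene, mostly the pseudogene Klra14-ps, and 5.7% of those of Klra7 occur in Klra13-ps. The share was 6.4% for Klra3, 0.2% for Klra1, 25.0% for Klrc1 (nearly all with Klrc2) and 13.2% for Klrb1c, whose exons overlap Gm44511 on the same strand. For Ncr1, Klre1, Klrk1 and Klrd1 it was 0%.

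NKG2D, the product of Klrk1, is an activating receptor for stress-induced ligands, found on NK cells and on many activated CD8 T cells, that signals through DAP10 and DAP12. Klrk1 (chromosome 6, 129610323 to 129623864, minus strand) had the most reads of the members: 1948, 1063, 1347, 1743 and 1524 normalized counts in PBS tumors 1 to 5 and 942, 1732, 1050.5, 2237 and 1858 in PIIO-1 tumors 1 to 5. The PIIO-1 tumors held both the lowest and the highest value. The means were 1525 ± 343 and 1564 ± 552, higher in PIIO-1 tumors, while the difference on the log2 scale was -0.011 (SE 0.24, 95% interval -0.54 to 0.52, adjusted p = 0.995, limma). Its sign turned with array weights (0.037), by edgeR (0.033) and by DESeq2 (0.038), and the value was 0.15 without PIIO-1 tumor 1.

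CD94, encoded by Klrd1, pairs with NKG2A, encoded by Klrc1, in an inhibitory receptor for the nonclassical class I molecule Qa-1. Klrd1 (chromosome 6, 129591782 to 129598775, plus strand) stood at 1131, 673, 772, 801 and 791 in PBS tumors 1 to 5 and at 486, 1014, 572, 1048 and 1096 in PIIO-1 tumors 1 to 5. PBS tumor 1 lay apart from the other PBS tumors, and the PIIO-1 tumors split into 2 low and 3 high values. The difference was -0.040 (SE 0.23, 95% interval -0.55 to 0.47), against 0.013 by edgeR, 0.018 by DESeq2 and 0.14 without PIIO-1 tumor 1.

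Klrc1 (chromosome 6, 129666015 to 129678973, minus strand) stood at 1253, 779, 849, 609 and 741 in PBS tumors 1 to 5 and at 526, 865, 582, 973 and 1084 in PIIO-1 tumors 1 to 5. PBS tumors 4 and 5 had the lowest Klrc1 of their group, with PBS tumor 2, the lowest PBS tumor for the other 9 members, above them. The Klrc1 to Klrd1 ratio was 0.760 in PBS tumor 4 and 0.936 in PBS tumor 5, against 1.10 to 1.16 in PBS tumors 1 to 3 and 0.853 to 1.08 in PIIO-1 tumors. The Klrc1 difference was -0.084 (SE 0.23, 95% interval -0.58 to 0.41), and 0.068 without PBS tumor 1.

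Klre1 encodes a receptor chain that pairs with the products of Klri1 and Klri2, and lies on chromosome 6 (129577905 to 129585827, plus strand). It stood at 358, 206, 240.1, 259 and 276 in PBS tumors 1 to 5 and at 140.3, 335, 173, 359.9 and 277 in PIIO-1 tumors 1 to 5. Its pattern was close to that of Klra8, with a Pearson r of 0.982 over 10 tumors, the highest of the 45 pairs of members. The Klre1 difference was -0.13 (SE 0.26, 95% interval -0.69 to 0.43), and 0.065 without PIIO-1 tumor 1.

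**Figure D2:**
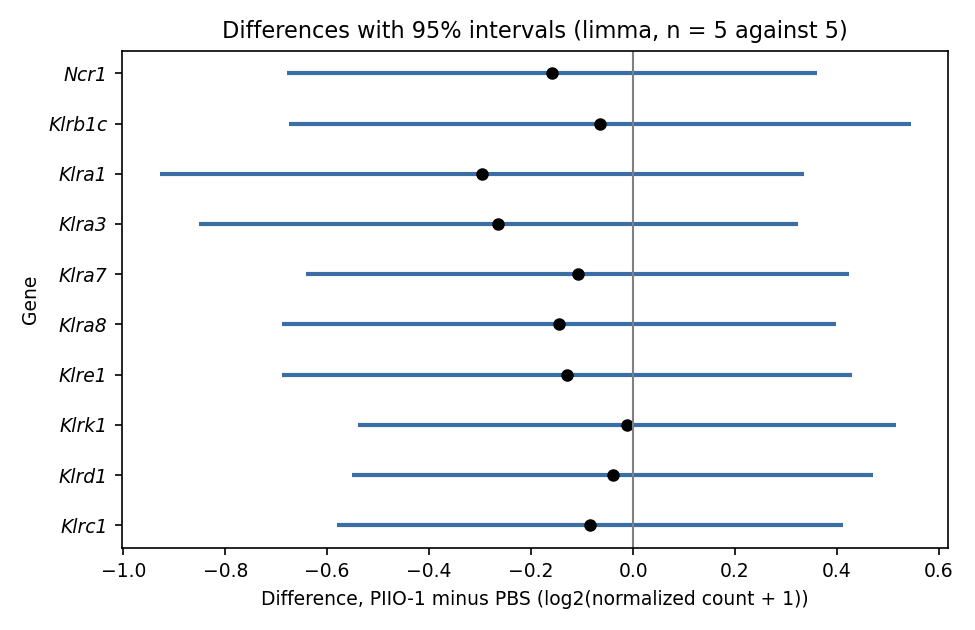
Difference of each member (PIIO-1 minus PBS, log2(normalized count + 1), x axis) as a point with its 95% interval from limma, 5 tumors against 5. Every interval spans 0, with bounds between -0.93 (Klra1) and 0.54 (Klrb1c).

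The intervals show what size of change these 10 tumors leave possible. For Klrk1 they ran from 0.688-fold to 1.43-fold, for Ncr1 from 0.625-fold to 1.28-fold and for Klra1 from 0.525-fold to 1.26-fold. Changes within these bounds are not excluded. The bounds are unadjusted and lie around each gene's own estimate, so they are not limits of detection.

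Per kilobase of exon, Klrd1 stood highest, at 654 ± 176 normalized counts per kb (SD, n = 10 tumors), followed by Klrc1 (416 ± 116), Klra8 (298 ± 84.4), Klra7 (296 ± 80.7), Ncr1 (229 ± 61.9), Klrk1 (215 ± 60.4), Klrb1c (169.6 ± 51.4), Klre1 (75.1 ± 21.5), Klra3 (66.7 ± 20.8) and Klra1 (29.4 ± 8.86). Klrk1, which has the most reads, is only in the middle of this order because its annotated exons cover 7183 bases, against 1281 for Klrd1. The step from Klra8 to Klra7 was smaller than the larger SD of the pair (Klra8 higher in 7 of 10 tumors). So were those from Ncr1 to Klrk1 (8 of 10) and from Klre1 to Klra3 (6 of 10). The steps from Klra7 to Ncr1 and from Klrk1 to Klrb1c were also smaller than that SD, although each was seen in 10 of 10 tumors. This SD includes the level that members share in a tumor, and differences within tumors were not tested. Annotated exons of all isoforms were added, so a long rare isoform lowers the value per kb.

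The members varied more between tumors than most genes. Their coefficient of variation over the 10 tumors was between 26.9% (Klrd1) and 31.1% (Klra3), with a median of 28.2%, against a median of 11.9% over all genes tested. Such a spread was not particular to the members among immune cell genes. It was 25.5% for Ptprc, 24.0% for Tyrobp, 25.6% for Hcst, 32.0% for Cd3e and 46.2% for Cd8a. PIIO-1 tumor 1 had the lowest value of 9 members, and PIIO-1 tumor 3 that of the other, Klra8. Both tumors were among the 3 lowest for all 10 members, and PBS tumor 2 was among them for 9. PBS tumor 1 was among the 3 highest for 9 members and PIIO-1 tumor 4 for 7. So low and high tumors were found in both treatment groups.

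**Figure D3:**
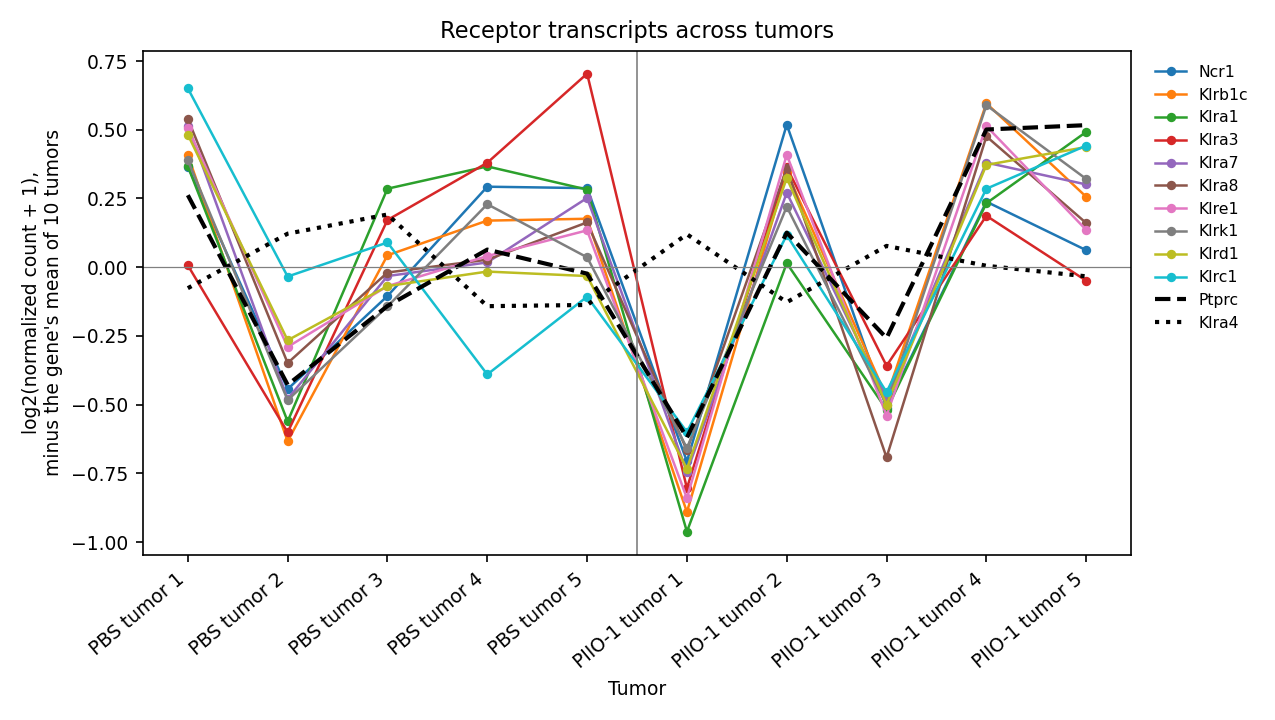
Level of each member in each tumor as log2(normalized count + 1) minus the gene's own mean over the 10 tumors (y axis), with PBS tumors on the left, PIIO-1 tumors on the right, and Ptprc (dashed) and Klra4 (dotted) for comparison. Lines only join the points of a gene. Members dip together in PIIO-1 tumors 1 and 3 and, apart from Klrc1, in PBS tumor 2. Klrc1 is low in PBS tumor 4 and Klra3 high in PBS tumor 5, while Klra4 stays near 0.

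Over the 45 pairs of members the median Pearson r was 0.891, and 0.907 after each group's mean was subtracted, so the shared pattern was present within the groups too. The lowest was 0.316, between Klra3 and Klrc1. Against the mean of the other 9 members, r was between 0.894 and 0.989 for 8 members, with Klra7 the closest, and it was 0.745 for Klrc1 and 0.744 for Klra3. These are descriptions over 10 tumors in which all genes of a tumor share its library and depth, with no test.

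Klrc1 had the highest r of the 10 members with Cd8a, a CD8 T cell gene (0.907), and with Cd3e, a chain of the T cell receptor complex (0.938). Its partner Klrd1 came next, at 0.784 and 0.854, followed by Klra8 (0.615 and 0.791) and Klre1 (0.609 and 0.766). For Ncr1 these were 0.383 and 0.566, for Klrb1c 0.525 and 0.676, for Klrk1 0.605 and 0.697, and for Klra3 0.027 and 0.313. Cd8a stood at 1077, 648, 585, 446 and 345 in PBS tumors 1 to 5 and at 351, 591, 374, 723 and 1175 in PIIO-1 tumors 1 to 5. PBS tumors 4 and 5, the tumors with the lowest Klrc1 to Klrd1 ratio of the PBS group, were also lowest of it in Cd8a, and the part of T cells in Klrc1 was not tested.

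Ncr1 was compared with Cd3e within each tumor, 1 ratio per tumor. The ratio was 1.45, 1.08, 1.21, 2.50 and 2.33 in PBS tumors 1 to 5 and 1.63, 2.08, 2.08, 1.45 and 1.14 in PIIO-1 tumors 1 to 5. PBS tumors 4 and 5 were highest and PBS tumor 2 lowest, so the PIIO-1 values lay inside the PBS range. On the log2 scale the PBS mean was 0.69 ± 0.55 and the PIIO-1 mean 0.71 ± 0.37 (SD, n = 5 each), a difference of 0.018 (two-sided exact permutation p = 0.960). Its sign is not settled, with -0.090 against Cd3d in place of Cd3e and -0.0097 against Trac, and single tumors left out moved it between -0.13 (without PBS tumor 2) and 0.17 (without PBS tumor 4).

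Ptprc RNA was low in the same tumors as the members. Ptprc, which encodes the pan-leukocyte protein CD45, stood at 14609, 9056, 11047, 12735 and 11985 in PBS tumors 1 to 5 and at 7928, 13292, 10188, 17239 and 17429.7 in PIIO-1 tumors 1 to 5. PIIO-1 tumor 1, PBS tumor 2 and PIIO-1 tumor 3 were its 3 lowest tumors. Its part in the member values was not tested beyond the covariate fit given here. Divided by Ptprc, the sum of the members was 0.439 ± 0.0225 for PBS and 0.388 ± 0.0433 for PIIO-1 (SD, n = 5 each), with overlapping ranges of 0.412 to 0.473 and 0.346 to 0.456. With the log2 level of Ptprc as a covariate, all 10 differences were below 0, with a median of -0.23 against 0.0031 over all genes. Ptprc itself differed by 0.11 (SE 0.21, PIIO-1 minus PBS), a difference within its spread. The fit takes this difference into account for genes that follow Ptprc, so its lower median is no separate result on the receptors. Klra1 at -0.43 (SE 0.15) and Klra7 at -0.22 (SE 0.097) were the 2 of 10 members with an unadjusted limma p under 0.05, where 1426 of 16767 genes had one. None passed over all genes (adjusted p = 0.497 for Klra1 and 0.572 for Klra7, limma).

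The genes whose log2 levels were most like the mean member pattern, among 11885 named genes with a mean of at least 50, included Cd74 (Pearson r 0.987 over 10 tumors), H2-Ab1 (0.981), Il2rb (0.972) and Cybb (0.970), 4 of the leading 6. Il2rb encodes the receptor chain that NK and T cells use for IL-2 and IL-15. Cd74 and H2-Ab1 belong to MHC class II presentation, and Cybb encodes an oxidase subunit of phagocytes. None of these 4 passed the test between the groups: Cd74 averaged 43792 ± 8272 (PBS) and 40673 ± 12899.8 (PIIO-1; difference -0.15, SE 0.22), and Il2rb 5615 ± 999 and 5382 ± 1664 (difference -0.10, SE 0.20). In all, 577 of the 11885 genes (4.85%) had an r above 0.8. Which 6 genes lead depends on the choices made: 2 of the 6 stayed when group means were subtracted, and 3 when Spearman's rho was used.

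Other lectin-like receptor genes, not all of them in the NK gene complex, were read from a list of 20, of which 17 passed the filter. Of these, 0 passed in either direction, 8 differences were positive and 9 negative, and the median was -0.011. The list's lowest p values were those of Klrc3 (-0.28, SE 0.28) and Klri2 (-0.25, SE 0.25). The r with the member pattern was above 0.8 for 7 of the 17, among them Klra9 (0.953), Klrc2 (0.894) and Klri2 (0.883).

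Klra4, Klra6 and Klrg2, singled out after their values were seen, did not follow the members. Klrg2 lies on chromosome 6 at 38625693 to 38637242, far from the members there and outside the NK gene complex. Klra4 encodes the activating receptor Ly49D. It stood between 3672 and 4627 normalized counts in PBS and between 3708 and 4402 in PIIO-1 tumors, 3264 ± 278 per kb (SD, n = 10), above the 654 per kb of Klrd1. Its coefficient of variation was 8.52%, and its r was -0.650 with the member pattern and -0.559 with Ptprc. Only 0.3% of the 75-base windows of Klra4 occur in another gene. Klra6 (157 ± 10.2 and 162 ± 24.9) had an r of -0.410 and a coefficient of variation of 11.4%, and Klrg2 (1248 ± 108 and 1205 ± 74.4) had -0.637 and 7.35%. The groups did not differ for these genes (differences 0.017, SE 0.075; 0.034, SE 0.12; and -0.049, SE 0.067).

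**Figure D4:**
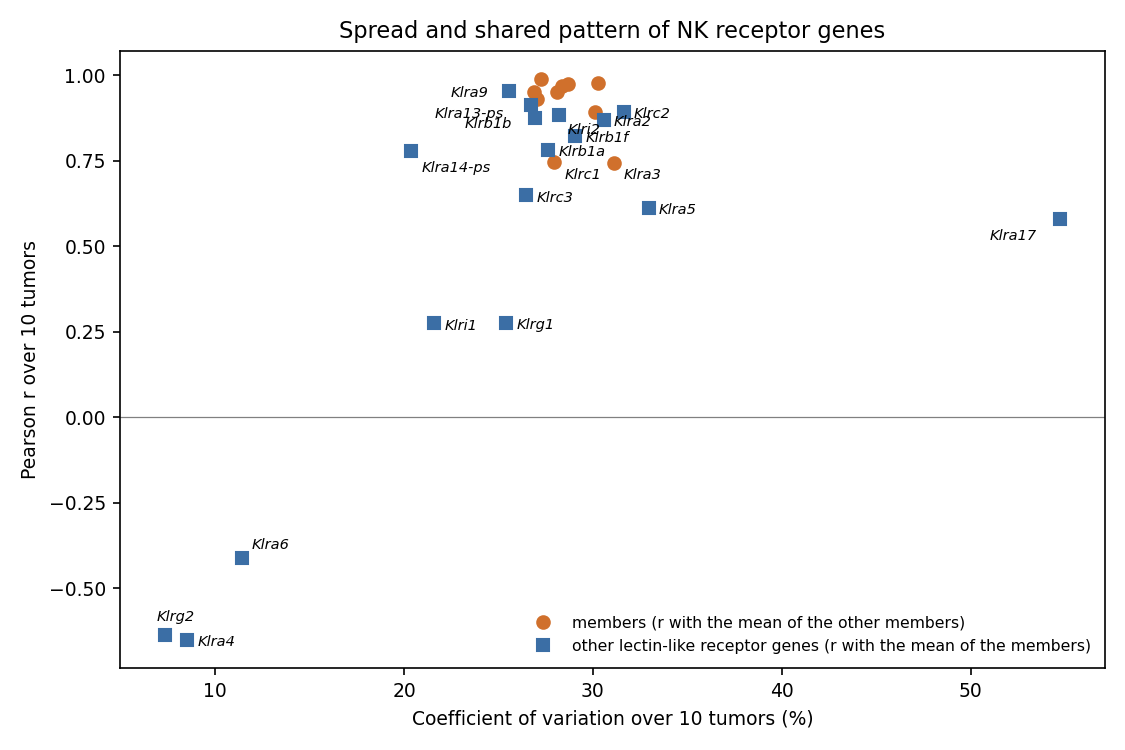
Coefficient of variation over 10 tumors (x axis, percent) against Pearson r with the mean pattern of the members (y axis), for the 10 members (circles, each against the other 9) and 17 other lectin-like receptor genes (squares). Members lie between 26.9% and 31.1% and at or above 0.744, while Klra4, Klra6 and Klrg2 lie below 0 with a spread of 7.35% to 11.4%.

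Partners of these receptors in the cell gave no call. Of 21 adaptor and signalling genes 0 passed, 12 were positive and 9 negative, with a median of 0.020. Hcst, which encodes DAP10, the adaptor of NKG2D, averaged 185 ± 43.9 (PBS) and 233 ± 55.8 (PIIO-1; difference 0.32, SE 0.19). Tyrobp, which encodes DAP12 and is also abundant in myeloid cells, stood at 4741 ± 928 and 5466 ± 1479 (0.18, SE 0.19), and the kinase gene Syk differed by 0.24 (SE 0.20). By limma, Hcst and Tyrobp thus had positive differences where the receptor genes had negative ones, and neither set passed the test. For Klrk1, which encodes NKG2D, the difference was only -0.011 (SE 0.24), and its sign turned by edgeR and DESeq2.

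Among 13 measured ligand genes 0 passed, with 4 positive and 9 negative differences and a median of -0.060. H2-T23, which encodes Qa-1, the ligand of CD94 with NKG2A, averaged 17341 ± 1969 (PBS) and 14878 ± 2746 (PIIO-1; difference -0.23, SE 0.12). H2-K1, a classical class I gene of the kind that Ly49 receptors bind, differed by -0.14 (SE 0.099).

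The remaining NK cell lists held 0 calls. Of 25 other surface receptor genes 12 differences were positive and 13 negative (median -0.0070). Il12rb1, a chain of the IL-12 receptor, averaged 3389.7 ± 374 (PBS) and 2554 ± 544 (PIIO-1; difference -0.42, SE 0.13, adjusted p = 0.837 by limma), and Cd244a, which encodes the receptor 2B4, at 1505 ± 154 and 1964 ± 520.0 (0.35, SE 0.16). Of 13 transcription factor genes 10 were positive (median 0.071), led by Nfil3, a factor needed for NK cell development, at 0.36 (SE 0.16) and Klf2 at 0.49 (SE 0.30). Of 15 cytotoxic and secreted products 8 were positive (median 0.0084), with the chemokine genes Ccl3 at 0.63 (SE 0.30) and Ccl4 at 0.45 (SE 0.28). Ccl3 and Ccl4 had an r of 0.349 and 0.409 with the member pattern, against a median of 0.767 over this list. For Nfil3 it was 0.369 and for Il12rb1 0.456, against 0.785 and 0.772 over their lists. Which cells these transcripts came from was not tested. Some chemokine genes, Ccl3 and Ccl4 among them, are counted again in the next list. Of 11 cytokine and recruiting chemokine genes 6 were positive (median 0.022), and Cx3cl1, the ligand of the receptor CX3CR1, averaged 1035 ± 188 (PBS) and 758 ± 92.2 (PIIO-1; -0.44, SE 0.13, adjusted p = 0.837 by limma).

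Markers of other cells that the tumors hold were read beside these values, and 0 of them passed. Of the 11 T cell markers 3 differences were positive, with a median of -0.070 (Trbc1 -0.24, SE 0.23; Cd3e -0.18, SE 0.29), and their summed level ran from 3797 to 7273 in PBS and from 2763 to 7389.9 in PIIO-1 tumors, lowest in PIIO-1 tumor 1 as for the members. Of 8 gamma-delta T cell markers 2 were positive (median -0.062; Sox13 -0.17, SE 0.13; summed level 913 to 982 and 764 to 1005). Sox13 had the highest mean of this list (536 normalized counts), with an r of -0.528 with the member pattern. The receptor chain gene Trdc, singled out after its values were seen, had a mean of 119 and an r of 0.773. Sox13 thus makes up the largest part of the sum, which is no measure of these cells. The sum was highest in PIIO-1 tumor 3, but Sox13 was highest in PBS tumor 2. Of 9 markers of other innate lymphoid cells 6 were positive (median 0.25; Il1rl1 0.70, SE 0.27; Areg 0.59, SE 0.26; summed level 3077 to 5224 and 3442 to 6684). Ahr, also singled out after its values were seen, had the highest mean of these genes (2555) and makes up most of their sum.

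Of 10 myeloid markers 9 were positive (median 0.30; Itgam 0.35, SE 0.15; Lyz2 0.41, SE 0.21), with a summed level of 37034 to 57592 in PBS and 37697 to 76592 in PIIO-1 tumors. B cell markers (6 of 7 positive, median 0.76; Cd79a 0.79, SE 0.37; Ighd 0.76, SE 0.39) and dendritic cell markers (6 of 8, median 0.33; Zbtb46 0.47, SE 0.24; Ccr7 0.47, SE 0.25) were mostly positive too. Stromal and endothelial markers (3 of 7, median -0.014; Pdgfrb -0.29, SE 0.23; Cdh5 0.12, SE 0.11) and epithelial markers (4 of 6, median 0.086; Krt14 0.41, SE 0.16; Cdh1 0.72, SE 0.31) were divided. Levels differed widely from 1 epithelial marker to another. The keratin gene Krt18 stood between 29446 and 35185 normalized counts over the 10 tumors (coefficient of variation 7.38%) and Epcam between 10.9 and 29.6. Both were singled out after their values were seen. All 5 red blood cell genes (median 1.42; Hba-a2 1.56, SE 0.39; Hbb-bs 1.42, SE 0.42) and all 8 immediate early genes (median 0.47; Fosb 0.87, SE 0.21; Fos 0.53, SE 0.13) were positive. Their part in the receptor values was not tested.

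List medians rested on single tumors in several cases. Dropping PIIO-1 tumor 5 lowered the median of the B cell markers to 0.38, of the dendritic cell markers to 0.12, of the myeloid markers to 0.16 and of the other innate lymphoid markers to 0.083. Dropping PIIO-1 tumor 1 raised the dendritic cell median to 0.49 and the other innate lymphoid median to 0.42. The T cell median was 0.15 when PBS tumor 1 was dropped and -0.29 when PIIO-1 tumor 5 was, so its sign turned. With 1 tumor dropped in turn the sign also turned for the gamma-delta T cell markers (-0.14 to 0.079), the stromal and endothelial markers (-0.094 to 0.10), the other lectin-like receptors (-0.079 to 0.077), the other surface receptors (-0.11 to 0.19) and the adaptors (-0.042 to 0.15). It turned likewise for the transcription factors (-0.018 to 0.22), the cytotoxic products (-0.13 to 0.11) and the cytokines (-0.080 to 0.20). The ligands stayed negative (-0.097 to -0.045) and the epithelial markers positive (0.057 to 0.31, the highest when PIIO-1 tumor 2 was dropped).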

How the data were processed

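RNA of 5 PIIO-1 and 5 PBS tumors, isolated with RNeasy kits and made into NEBNext Ultra libraries per the labels' protocols, was compared. The deposited values are a signal that is never negative: gene counts that the authors divided by a size factor per tumor, per the file's name and the submitters' processing notes, which name HISAT2, featureCounts, DESeq2 and GRCm38. The annotation used and the strand setting: not given in the sources used here. Each column is made of whole multiples of 1 step (0.817 to 1.56 normalized counts per read, 100% of values within 0.001 read), so whole reads were recovered for the count tests; in PIIO-1 tumors 1 and 3 the step lies too near 1 for the automated unit check, and those tests serve only as alternatives. Recovered totals ran from 18843192 (PBS tumor 4) to 37581521 reads, and 3 reads are worth 2.45 to 4.68 normalized counts, counting error only.

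The main test was limma 3.58.1 (R 4.3.3, intensity trend, two-sided) on log2(value + 1) over 16767 genes (mean 10 or more), PIIO-1 against PBS, Benjamini-Hochberg adjusted, threshold 0.05; on this scale the change of a low gene is understated. It was tested on simulated data in which genes varied independently, unlike the members here, so that test gives no detection limit for them. Alternatives were pseudocounts of 0.5 and 5, no filter, a minimum mean of 50, TMM and upper-quartile scaling, no trend, array weights, a replicate block, Ptprc as a covariate, edgeR 4.0.16, DESeq2 1.42.0 and each tumor left out. The members and gene lists were chosen with earlier results of these data known; apart from the genes said to be singled out later, the text names all members, the 2 genes of each list with the smallest p, a fixed panel (Cd3e, Cd8a, Ptprc, Tyrobp and Hcst) and the 6 named genes with the highest Pearson r with the mean member z-score. Some genes chosen this way are not reported here. Genes quoted only as examples of r (Klra9 and Klrc2), and Klra13-ps, Klra14-ps and Gm44511 as sharing sequence, stand outside that rule and were chosen after their values were seen. Coordinates and exon lengths are from GENCODE M21 (GRCm38), in which 99.0% of symbols matched 1 gene. Upstream windows are from RefSeq (GRCm38.p6).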

Additional observations from a re-analysis of the deposited data

Results flagged for a closer look

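Klra1 in PBS tumor 2 (33.2 normalized counts) stood far below the other 4 PBS tumors, with a gap to the nearest of 0.880 of the group's range. Klrd1 in PBS tumor 1 (1131 normalized counts) stood above the other 4, with a gap of 0.722 of the range. Both gaps exceed Dixon's critical value for 5 samples. The 10 members and the Ncr1 to Cd3e ratio were looked at in both treatment groups, 22 groups of tumors in all, and chance flags about 1 in 20.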

How the results depend on the processing

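No member passed limma, edgeR or DESeq2 under any of the alternatives run. The number of genes called over the whole table was 0 under all of them except DESeq2, which called 3. With 1 tumor left out in turn the count of called genes stayed 0. Unadjusted limma p-values under 0.05 numbered 944, with Ptprc as a covariate 1426, and with 1 tumor left out from 625 (PIIO-1 tumor 5) to 1657 (PIIO-1 tumor 1). The replicate numbers are not stated to mark a shared animal, batch or day. Deviations of same-numbered tumors had correlations of -0.206 to 0.095, and 0 of 5 tumors correlated best with its own number. No pairing was seen, but so few correlations cannot exclude one. The replicate block gave 0 called genes, 885 at an unadjusted p under 0.05 and the same median member difference of -0.12, which ran from -0.24 to 0.060 with 1 tumor left out. Scaling moved the median of all genes by under 0.1 on the log2 scale.

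Directions of single members rested on single tumors, and the cause was not tested. Leaving out 1 tumor gave ranges of -0.23 to 0.15 for Klrb1c, -0.24 to 0.064 for Klra7, -0.28 to 0.010 for Klra8, -0.27 to 0.065 for Klre1, -0.16 to 0.15 for Klrk1, -0.15 to 0.14 for Klrd1 and -0.20 to 0.068 for Klrc1. Ncr1 (-0.31 to -0.0027), Klra1 (-0.47 to -0.093) and Klra3 (-0.45 to -0.097) stayed negative. The sign also turned for Klrk1 with array weights (0.037), edgeR (0.033) and DESeq2 (0.038), and for Klrd1 with edgeR (0.013) and DESeq2 (0.018). The log2 ratio of Ncr1 to Cd3e (0.018) was -0.090 with Cd3d and -0.0097 with Trac, ran from -0.13 to 0.17 with 1 tumor left out, and had a sign-flip exact permutation p of 1 under the replicate block. Of the 6 genes most like the members, 2 stayed when group means were subtracted, 3 by Spearman's rho, 3 with Ncr1 and Klrb1c alone as the pattern, and 2 to 5 with 1 tumor left out. Klra1 rests on 25 to 77 reads per library, so its counting error is the largest of the members.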
